A study of Mus musculus with 36 samples.

Results

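The 10 genes described here encode proteins that make, release, receive or relay Wnt signals, and they were chosen by name with their responses to culture medium already known, led by Wls. They are Wls and Porcn (secretion), Wnt3a, Wnt6 and Wnt7b (ligands), Fzd5 and Lrp6 (receptors), and Ctnnb1, Axin2 and Tcf7l1 (relay and targets). They were found by symbol among the 40160 transcript clusters with a gene symbol, a transcript cluster being a group of probes that reads 1 gene. Each of the 10 had 1 transcript cluster, and that of Ctnnb1 also carries the microRNA gene Mir7090. Because the comparison with the KSOM(aa) medium picked the genes, their differences from KSOM(aa) are given as a description without a test. Tests are given for comparisons or genes other than those: the other media with each other, embryos with each other, and the other genes of the pathway. The last use the same contrasts with KSOM(aa). The gene lists and tests were also chosen with earlier results of these data known, so these tests are not independent of that knowledge.

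The study asked whether the medium in which separated sister blastomeres of the 2-cell mouse embryo grow changes what they become. Zygotes of the B6C3F1 x CD1 cross, obtained after ovarian stimulation, were all held in KSOM(aa) until they had divided into 2 cells. Their blastomeres were then parted and grown singly for 72 h, about 96 h of culture in all, to blastocysts. By the sample label these had approximately 40 to 50 cells, and each was lysed whole and measured on 1 array. Both half-embryos of embryos 1 to 8 grew in KSOM(aa), an embryo culture medium with amino acids (n = 16). Embryos 9 to 18 gave 1 half-embryo to GM501 (n = 10) and the other to SAGE 1-step (n = 10), 2 single-step media made for assisted reproduction. In stained twin blastocysts the study counted more cells in media of this kind than in KSOM(aa). The part of cell number in any difference from KSOM(aa) was not tested.

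Wnt proteins are secreted signals that carry a lipid. Porcn attaches this lipid in the endoplasmic reticulum, and Wls then carries the lipidated Wnt to the cell surface. There a Frizzled receptor such as Fzd5, together with the co-receptor Lrp6, stops the destruction complex from degrading beta-catenin, the product of Ctnnb1, which then acts with transcription factors of the TCF/LEF family. In the mouse blastocyst the outer trophectoderm surrounds the inner cell mass, from which epiblast and primitive endoderm arise, and embryonic stem cells derived from the epiblast respond to Wnt.

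The start region of Wls and the first of 2 of Ctnnb1 are shown because these genes had the clearest patterns among the 10, Wls by medium and Ctnnb1 by embryo. They run from 250 bases before the start of transcription to 50 after it, and were taken from RefSeq on GRCm38.p6. Capitals mark CTTTG on either strand, the core of the sequence that TCF/LEF factors bind.
Wls, chr3:159839400-159839699, plus strand: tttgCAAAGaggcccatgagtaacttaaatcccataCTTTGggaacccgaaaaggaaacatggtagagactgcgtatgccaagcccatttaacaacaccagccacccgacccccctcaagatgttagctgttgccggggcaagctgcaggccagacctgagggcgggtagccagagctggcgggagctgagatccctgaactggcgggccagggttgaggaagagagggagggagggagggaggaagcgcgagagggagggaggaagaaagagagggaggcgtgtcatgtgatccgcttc
Ctnnb1, chr9:120933150-120933449, plus strand: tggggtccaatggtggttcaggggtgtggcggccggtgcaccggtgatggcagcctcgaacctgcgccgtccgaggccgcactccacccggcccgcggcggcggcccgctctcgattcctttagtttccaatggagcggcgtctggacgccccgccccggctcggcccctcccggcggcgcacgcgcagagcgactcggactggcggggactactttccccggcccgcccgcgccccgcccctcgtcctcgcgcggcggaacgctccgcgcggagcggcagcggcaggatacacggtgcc
The core occurred 2 times in the Wls region, and not in that of Ctnnb1. Its leftmost base as printed lies at -214 from the start for the plus-strand core and at -246 for the minus-strand core. The core is present in 53.9% of the 32851 start regions in the same table, so its presence does not set Wls apart. The longer forms CTTTGAA and CTTTGAT, searched on both strands, were found in none of the 8 start regions of the 7 members that the table holds, and 1 or the other in 8.65% of all. The Wls region contained 58.0% G and C and 11 CpG dinucleotides, against 70.0% to 86.3% and 31 to 51 in the other 7 regions, and a median of 52.7% and 7 over the table. The table pairs no sequence with Porcn, Wnt7b or Lrp6.

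The arrays fell into unequal sets, which bear on every value below. No scan-name series of the deposited table holds both KSOM(aa) and another medium, so each difference from KSOM(aa) joins medium and array set, and these cannot be told apart. GM501 and SAGE 1-step were scanned in 1 series and share their embryos. Within them, the 12 half-embryos of embryos 9 to 14 had log2 signals of 18S ribosomal RNA (Rn18s) of 16.15 to 17.65, below all 24 other half-embryos, which had 17.96 to 18.71. Half-embryo 16b, in SAGE 1-step, also stood apart, with a detection level of 5.29 against 4.55 to 4.74 in the other 7 of embryos 15 to 18. The detection level of an array is the 90th percentile over 1527 genes of olfactory and vomeronasal receptors, taken as background. The split between embryos 14 and 15 is not in the labels. It was drawn from this 18S signal of the same arrays, so the p-values given for it below describe how far arrays differ across a split found in them and do not test a labelled condition. Lineage markers of the blastocyst were present: all 15 trophectoderm markers were above the detection level in at least 50% of the arrays of each medium, as were 10 to 12 of 12 epiblast and 10 to 11 of 12 primitive endoderm markers, against 3 to 4 of 10 markers of cumulus and granulosa cells. High Xist was found in 4 of 16 half-embryos grown in KSOM(aa) and 5 of 10 from either other medium. The number of embryos, 8 in KSOM(aa) and 10 in the other media, limits how precise each comparison is. The fits against KSOM(aa) below count each half-embryo as 1 sample, although sisters share an embryo and, in embryos 9 to 18, an embryo set. With sisters in KSOM(aa) averaged, calls over all transcript clusters went from 3076 to 591 in GM501 and from 3836 to 743 in SAGE 1-step. The standard error of Wls went from 0.29 to 0.33 in both.

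Wls, the carrier of Wnt proteins (mm10 chromosome 3, 159839695 to 159938664), was the member whose signal separated the media. In KSOM(aa) its log2 signal ran from 7.71 to 10.00 with a median of 9.16 (mean 8.98 ± 0.79, SD, n = 16). In GM501 it ran from 10.31 to 11.65 with a median of 10.88 (10.92 ± 0.49, SD, n = 10), and in SAGE 1-step from 9.80 to 12.57 with a median of 10.91 (11.11 ± 0.86, SD, n = 10). Every half-embryo in GM501 was above every half-embryo in KSOM(aa), which held for 5 of 40160 transcript clusters (0.0125%), with 0.0299% wholly below. In SAGE 1-step 9 of 10 were, half-embryo 12b at 9.80 lying below 4 of those in KSOM(aa), and full separation held for 0.00996% of transcript clusters upward and 0.0324% downward. The means rank upward as KSOM(aa), GM501 and SAGE 1-step, of which the last pair lie within the spread of half-embryos. The log2 difference from KSOM(aa) was 1.94 (standard error 0.29) in GM501, a 3.83-fold higher signal, and 2.13 (0.29) in SAGE 1-step, a 4.38-fold higher signal. Over all genes 7.66% passed the test in GM501 and 9.55% in SAGE 1-step (limma, adjusted p under 0.05), and since this contrast chose Wls nothing is read from them. Both differences use the same 16 half-embryos in KSOM(aa).

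As deposited, the difference in Wls from KSOM(aa) was of like size in each embryo set. In embryos 9 to 14 alone it was 1.93 (standard error 0.37) in GM501 and 2.12 (0.37) in SAGE 1-step, and in embryos 15 to 18 alone 1.95 (0.39) and 2.14 (0.39). Over the ways of scaling the arrays it ran from 1.81 to 2.46 in GM501 and from 1.99 to 2.72 in SAGE 1-step, and without half-embryo 16b it was 2.05 in SAGE 1-step. Trophectoderm markers, unlike Wls, were lower than in KSOM(aa), but not evenly over the embryo sets. Summed, they reached log2 levels of 18.86 to 19.29 (KSOM(aa)), 18.13 to 18.83 (GM501) and 17.60 to 18.98 (SAGE 1-step), and 9 of 15 fell in GM501 and 7 of 15 in SAGE 1-step (limma, adjusted p under 0.05), against 3.6% and 4.42% of all transcript clusters. All 15 were detected, against 22925 of all 40160 transcript clusters, so these shares compare unlike genes. Fitted alone, the 22925 detected transcript clusters gave 1769 lower calls in GM501 and 2026 in SAGE 1-step. Of the trophectoderm markers, Eomes, a transcription factor of the trophectoderm, fell, with log2 differences of -1.22 and -1.23 (adjusted p = 5.3e-04 and 3.4e-04, limma), and Krt8, a keratin of its epithelium, with -1.16 and -1.38 (adjusted p = 0.00449 and 8.7e-04, limma). Cdx2, which the trophectoderm also needs, had log2 differences of -0.17 and -0.29 (adjusted p = 0.444 and 0.163, limma). Nanog (adjusted p = 0.307 and 0.0888, limma) and Gata6 (0.866 and 0.353), markers of epiblast and primitive endoderm, did not pass the test either, while 1 and 3 of 12 epiblast markers fell and 1 of 12 primitive endoderm markers rose in each medium. By embryo set, the summed trophectoderm level in GM501 was 18.13 to 18.47 in embryos 9 to 14 and 18.66 to 18.83 in embryos 15 to 18. In SAGE 1-step it was 17.60 to 18.47 and 18.19 to 18.98. Krt8 in GM501 was 15.03 to 15.57 and 16.71 to 16.96, against 16.82 to 17.26 in KSOM(aa). Median Eomes in GM501 was 13.12 and 13.70, against 14.54 in KSOM(aa). Whether lineage composition has a part in the Wls difference was not tested, and in whole blastocysts fewer cells of a type and less RNA per cell cannot be told apart.

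**Figure D1:**
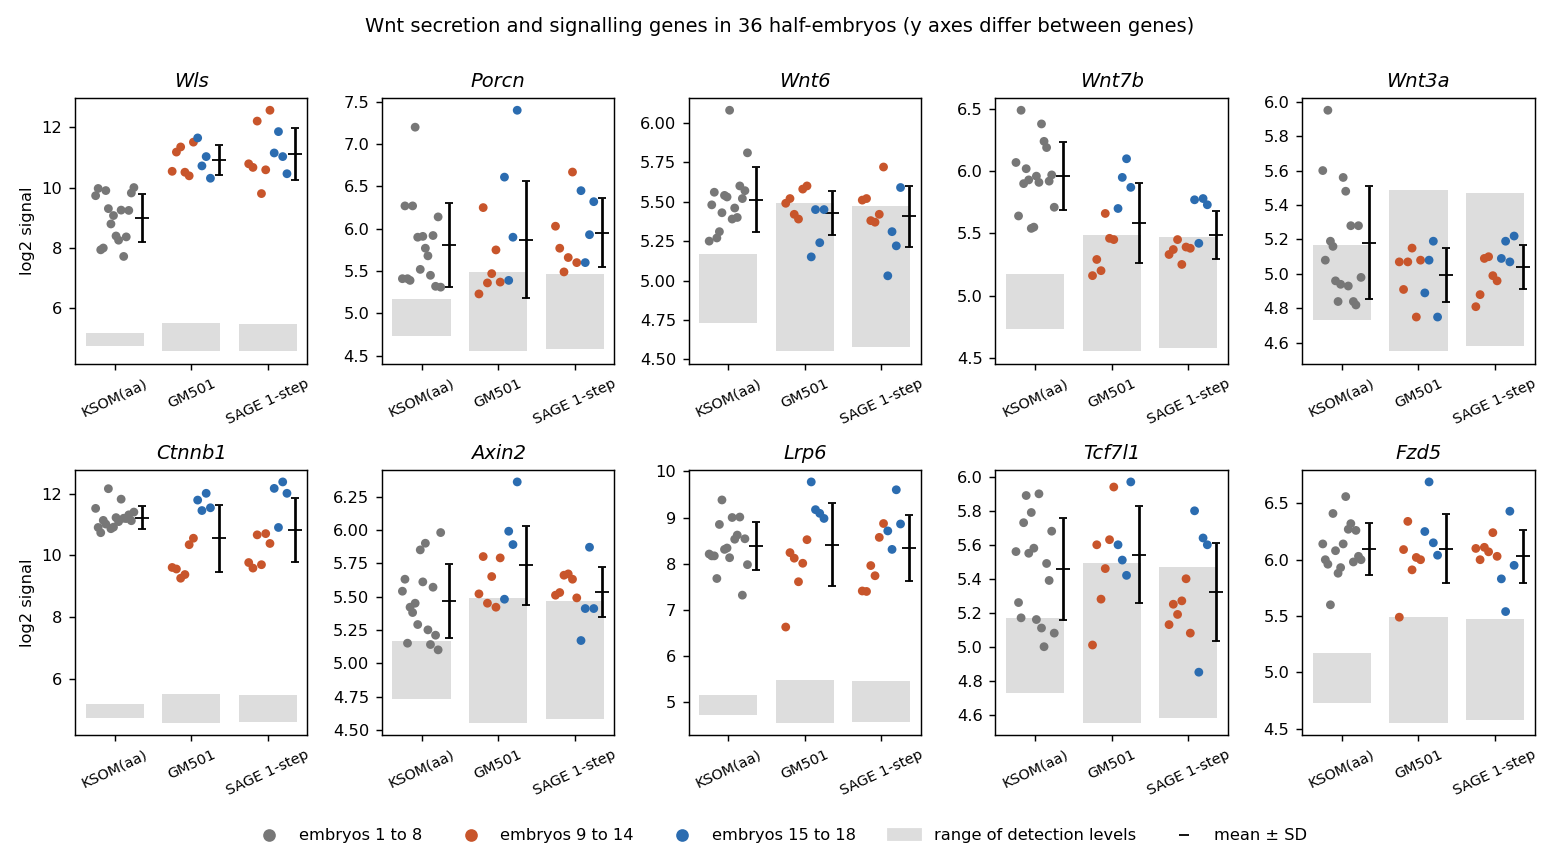
Log2 signal of each of the 10 genes in 36 half-embryos, by medium. Each point is 1 half-embryo, coloured by embryo set, black bars are the mean and SD, and grey bands span the detection levels of the arrays. Wls in GM501, from 10.31 to 11.65, is above all of KSOM(aa), while Ctnnb1 and Lrp6 differ by embryo set within the same medium.

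Porcn, the enzyme that lipidates Wnt proteins (chromosome X, 8193848 to 8206525), had no such pattern. Its log2 signal was 5.31 to 7.20 (median 5.72) for KSOM(aa), 5.23 to 7.40 (median 5.61) for GM501 and 5.49 to 6.67 (median 5.85) for SAGE 1-step, so the media overlapped almost completely. The log2 differences from KSOM(aa) were 0.07 (standard error 0.21) and 0.15 (0.21), with -0.06 and 0.01 when arrays were centred on the median and 0.59 and 0.74 when they were scaled to Actb, Gapdh and Hprt. Porcn lay a median of 0.80 above the detection level on the log2 scale. It is X-linked, and in GM501 it averaged 6.25 ± 0.83 (SD, n = 5) in half-embryos with high Xist against 5.50 ± 0.23 (SD, n = 5) in the others. In SAGE 1-step these means were 6.25 ± 0.35 (SD, n = 5) and 5.66 ± 0.17 (SD, n = 5), and in KSOM(aa) 5.78 ± 0.18 (SD, n = 4) and 5.81 ± 0.57 (SD, n = 12). This comparison was chosen after the values were seen and was not tested.

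Of the 3 ligands, Wnt7b was lower than in KSOM(aa) in both other media as deposited, and all 3 were near the detection level. Wnt7b (chromosome 15, 85535437 to 85581821) ran from 5.54 to 6.49 in KSOM(aa) (median 5.94), from 5.16 to 6.10 in GM501 (median 5.56) and from 5.25 to 5.78 in SAGE 1-step (median 5.40). Its log2 differences from KSOM(aa) were -0.38 (standard error 0.11) and -0.48 (0.11), and they turned to 0.14 and 0.12 when arrays were scaled to Actb, Gapdh and Hprt. That scaling moved the median of all genes to 0.61 and 0.69, from 0.09 and 0.10 as deposited, and of the 3 genes it rests on 2 fell in GM501 and 3 in SAGE 1-step. The lower signal lay mostly in embryos 9 to 14, at -0.59 (0.11) and -0.60 (0.11), against -0.06 (0.14) and -0.29 (0.14) in embryos 15 to 18. Wnt6 (chromosome 1) had log2 signals of 5.25 to 6.08, 5.15 to 5.60 and 5.03 to 5.72 in these media in the same order, with overlapping groups, and differences of -0.08 and -0.11 (standard error 0.08) that became 0.44 and 0.49 under that scaling. Wnt3a (chromosome 11), a ligand that maintains embryonic stem cells in culture, exceeded the detection level in 12 of 16, 5 of 10 and 5 of 10 half-embryos. Its values of 4.75 to 5.95 are close to background, and its differences of -0.19 and -0.14 (standard error 0.10) likewise became 0.33 and 0.45.

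The receptors did not separate the media. Fzd5 (chromosome 1), a Frizzled receptor, had log2 signals of 5.60 to 6.56, 5.49 to 6.69 and 5.54 to 6.43 in the same order of media, with medians of 6.06, 6.06 and 6.05. Its differences were 0.00 and -0.07 (standard error 0.11), and 0.52 and 0.53 when scaled to Actb, Gapdh and Hprt. Lrp6 (chromosome 6, 134446476 to 134566965), the co-receptor, ran from 7.32 to 9.38 in KSOM(aa) (median 8.32), from 6.63 to 9.77 in GM501 (median 8.38) and from 7.40 to 9.60 in SAGE 1-step (median 8.44). Its differences over all embryos, 0.02 (standard error 0.27) and -0.05 (0.27), became -0.11 and -0.19 with arrays centred on the median and 0.54 and 0.55 when scaled to Actb, Gapdh and Hprt. They joined values of opposite sign. In embryos 9 to 14 they were -0.53 (0.27) and -0.40 (0.27), and in embryos 15 to 18 they were 0.86 (0.28) and 0.48 (0.28).

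Ctnnb1, which encodes beta-catenin (chromosome 9, 120929216 to 120960507), was well above the detection level in every half-embryo and split in the same way. Its log2 signal was 10.74 to 12.17 in KSOM(aa), with a median of 11.17. In GM501 it was 9.26 to 10.56 in embryos 9 to 14 and 11.46, 11.55, 11.80 and 12.02 in embryos 15 to 18. In SAGE 1-step it was 9.59 to 10.71 in embryos 9 to 14 and 10.91, 12.02, 12.18 and 12.39 in embryos 15 to 18. All 12 half-embryos of embryos 9 to 14 were thus below every half-embryo in KSOM(aa), which held for 489 of 40160 transcript clusters (1.22%, with 2.37% wholly above), and 2 of embryos 15 to 18, both in SAGE 1-step, were above every one. The log2 differences from KSOM(aa) were -1.45 (standard error 0.21) and -1.09 (0.21) in embryos 9 to 14, and 0.47 (0.23) and 0.64 (0.23) in embryos 15 to 18. A single difference over all embryos, -0.68 (0.32) in GM501 and -0.40 (0.32) in SAGE 1-step, describes neither set, and in SAGE 1-step it turned to 0.19 under scaling to Actb, Gapdh and Hprt.

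Axin2, a scaffold of the destruction complex that is itself induced by beta-catenin in many tissues, and Tcf7l1, a repressive TCF factor of embryonic stem cells, stayed within narrow ranges near the detection level. Axin2 (chromosome 11) ran from 5.10 to 5.98, from 5.42 to 6.36 and from 5.17 to 5.87 in the same order of media, with log2 differences of 0.27 (standard error 0.11) and 0.07 (0.11), which became 0.79 and 0.66 (0.17) when scaled to Actb, Gapdh and Hprt and 0.14 and -0.07 (0.13) with arrays centred on the median. Tcf7l1 (chromosome 6) ran from 5.00 to 5.90, from 5.01 to 5.97 and from 4.85 to 5.80, with differences of 0.08 (0.12) and -0.14 (0.12), which the scaling to reference genes turned to 0.60 and 0.46 and centring to -0.05 and -0.28. In both genes the media overlapped.

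GM501 and SAGE 1-step were then compared with each other, a comparison free of the array set and not the contrast that picked the genes. None of the 10 genes differed at an adjusted p under 0.05 (limma, each half-embryo 1 sample, percent called over all genes 0.0). No transcript cluster of 40160 passed, and 611 had an unadjusted p under 0.05. The log2 difference of Wls, GM501 minus SAGE 1-step, was -0.19 with a 95% interval from -0.85 to 0.46 (adjusted p = 1, limma), so a difference of the size seen against KSOM(aa) lies outside the interval. For Ctnnb1 it was -0.28 (standard error 0.36), for Lrp6 0.07 (95% interval -0.54 to 0.69) and for Porcn -0.08 (-0.55 to 0.39). The other 6 genes lay between -0.05 and 0.22, and their intervals reached no further than -0.27 and 0.49. Within the 10 sister pairs Wls was higher in GM501 in 3, lower in 6 and equal to the 2 decimals deposited in 1, with differences from -1.14 to 0.71. The intervals and standard errors above leave out the pairing of sisters. With the embryo as a fixed replicate block the differences were the same. The standard error was then 0.2 against 0.32 for Wls, 0.17 against 0.36 for Ctnnb1 and 0.2 against 0.3 for Lrp6. For Axin2 it stayed at 0.12, and for Fzd5 it was larger, 0.15 against 0.12. No transcript cluster passed with that block, and with a random replicate block 1 did, which was not a member. No dependence of the difference between these media on embryo set was detected: for none of the 10 genes, and for no transcript cluster, did the medium-by-set term pass (percent called 0.0, 2810 of 40160 at an unadjusted p under 0.05), and that of Wls was 0.01 (95% interval -0.87 to 0.88, adjusted p = 0.998, limma).

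**Figure D2:**
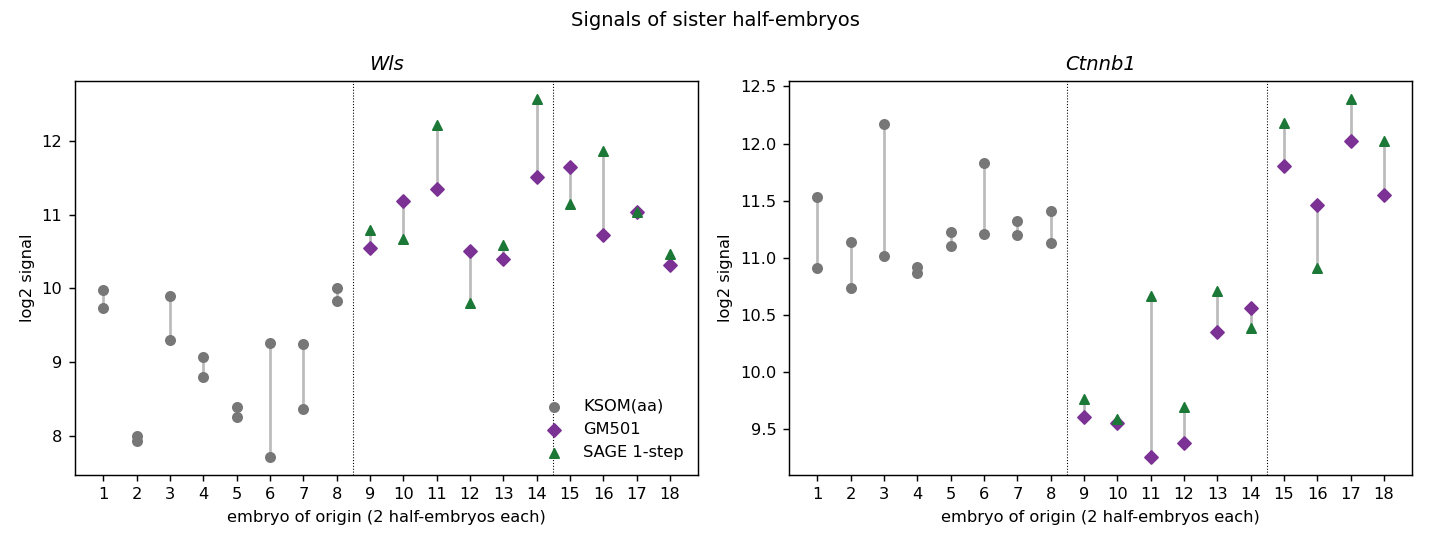
Log2 signals of Wls (left) and Ctnnb1 (right) in the 2 half-embryos of each of 18 embryos, joined by a line, with the marker giving the medium. Dotted lines part embryos 1 to 8, 9 to 14 and 15 to 18. Wls is higher from embryo 9 on, at like levels in embryos 9 to 14 and 15 to 18, whereas Ctnnb1 is lower in embryos 9 to 14 than in 15 to 18 in either medium.

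Embryos 9 to 14 differed from embryos 15 to 18 in 3 of the 10 genes, across the split drawn from the arrays. On the mean of the sisters, with embryos as the samples (6 against 4), Ctnnb1 was lower by 1.83 on the log2 scale (9.96 ± 0.44 against 11.79 ± 0.44, SD, adjusted p = 5.4e-04, limma), a signal of 0.282 times that of embryos 15 to 18. Lrp6 was lower, at -1.14 (7.92 ± 0.57 against 9.06 ± 0.28, SD, adjusted p = 0.00907, limma), and Wnt7b at -0.42 (5.37 ± 0.08 against 5.79 ± 0.11, SD, adjusted p = 0.00586, limma), although Wnt7b turned to 0.18 (adjusted p = 0.394, limma) when arrays were scaled to Actb, Gapdh and Hprt. The embryo means of these 3 genes did not overlap between the sets, which held for 5.84% of transcript clusters in that direction and 22.1% in the other, and the exact permutation test over 10 embryos gave p = 0.00952 for each, the smallest it allows (2-sided). This count is read against a wide background: 54.9% of all transcript clusters passed, 45.6% higher and 9.25% lower, with a median log2 difference of 0.30. Centring each array on its median brought that median to -0.03 and turned the split to 2474 higher and 6097 lower, and scaling to Actb, Gapdh and Hprt made it 32681 higher and 1239 lower. Ctnnb1 stayed lower under these and quantile normalization, at -2.16 to -1.22, and Lrp6 at -1.47 to -0.53.

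As deposited, Wls did not differ detectably between the embryo sets. Its embryo means were 10.16 to 12.04 in embryos 9 to 14 (11.01 ± 0.75, SD, n = 6) and 10.39 to 11.40 in embryos 15 to 18 (11.03 ± 0.45, SD, n = 4), a log2 difference of -0.02 with a 95% interval from -0.82 to 0.79 (adjusted p = 0.969, limma; exact permutation p = 0.971). The Wls difference was -0.35 with arrays centred on the median (adjusted p = 0.569, limma). Scaled to Actb, Gapdh and Hprt it was 0.59 (adjusted p = 0.114, limma). The other 6 genes had log2 differences from -0.48 (Porcn) to 0.19 (Wnt6) and exact permutation p from 0.124 to 0.438. Within 1 medium, Ctnnb1 passed in GM501 and in SAGE 1-step alike (adjusted p = 0.00133 and 0.0069, limma), whereas Lrp6 (0.00937 and 0.104) and Wnt7b (0.0107 and 0.11) passed in GM501 alone, a contrast between media that their medium-by-set terms did not bear out (adjusted p = 0.755 and 0.78, limma). Without embryo 16, whose half-embryo 16b stood apart, 5 genes passed, with Porcn at -0.71 and Tcf7l1 at -0.32 added. Rn18s differs between the sets by the way they were drawn. The summed trophectoderm level moved with the sets, at 17.60 to 18.47 in embryos 9 to 14 and 18.19 to 18.98 in embryos 15 to 18. So did Krt8, which was lower at -1.48 (adjusted p = 4.6e-04, limma). Of 15 trophectoderm markers 8 were lower and 2 higher, of 12 primitive endoderm markers 7 lower and 1 higher, with a median summed level of 13.65 against 14.64, of 12 epiblast markers 3 lower and 1 higher, and of 10 cumulus and granulosa markers 6 higher. Of the 3 reference genes Actb (-1.22) and Gapdh (-0.89) were lower, and Gapdh did not overlap, at 13.90 to 15.24 against 15.55 to 15.90. The part of any of these in the Ctnnb1 and Lrp6 differences was not tested.

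**Figure D3:**
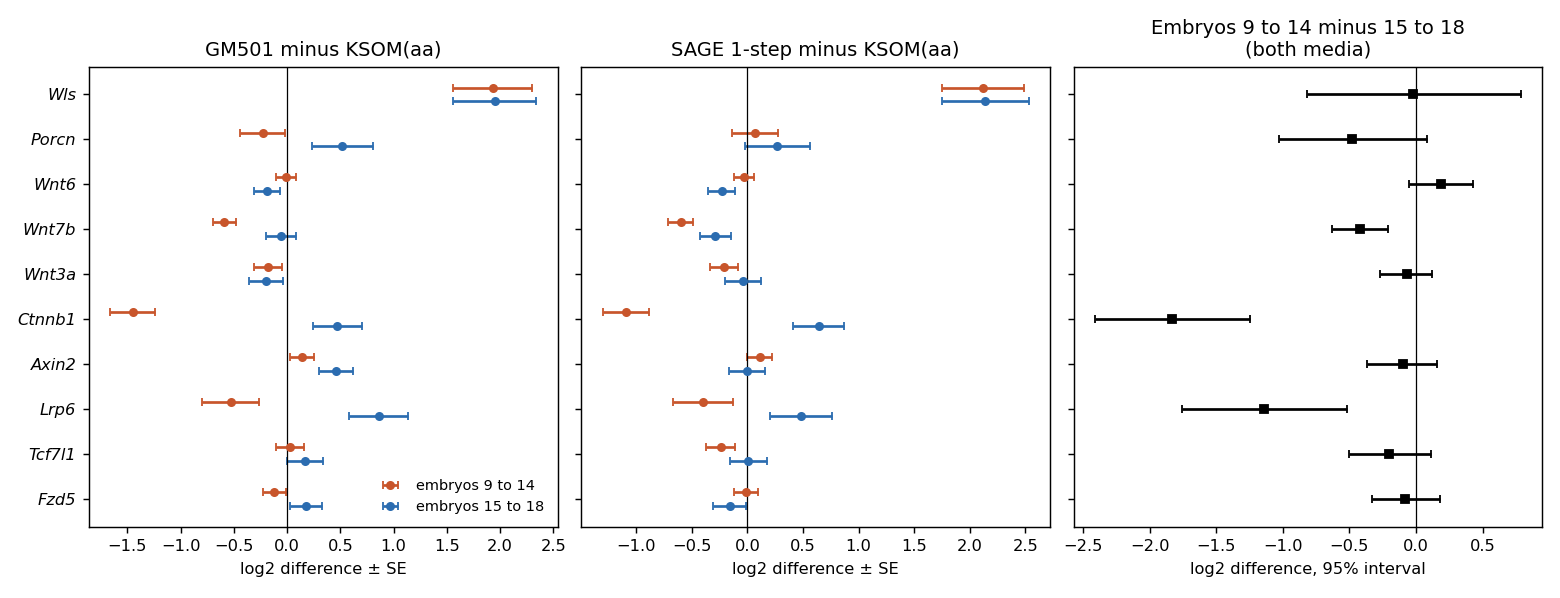
Log2 differences of the 10 genes. The left and middle panels give each medium minus KSOM(aa) within embryos 9 to 14 and within embryos 15 to 18, with standard errors, and the right panel gives embryos 9 to 14 minus 15 to 18 with 95% intervals. As deposited, the points of Wls lie close together between the sets at 1.93 and 1.95 in GM501, and those of Ctnnb1 lie on opposite sides of 0.

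Between embryos in KSOM(aa), where both sisters share the medium and the array set, none of the 10 genes passed the moderated F test (limma, adjusted p under 0.05), which 0.187% of transcript clusters did. Wls came nearest, with F = 5.17 over 8 embryos (unadjusted p = 0.00836, adjusted p = 0.252, limma). Its sisters differed by 0.06 to 1.54, the largest gap being in embryo 6, while embryo means ran from 7.96 to 9.91. Embryo 2 had 7.93 and 7.99 and embryo 8 had 9.82 and 10.00, so embryos as far apart as these were alike within the pair. For the other 9 genes F was 0.849 to 2.41. In simulated arrays this test recovered 48 of 200 genes given added variation between embryos, so a gene that does not pass may still differ.

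Of the genes whose signal ran most like that of Wls among 21336 detected with 1 symbol, the 5 with the highest Pearson correlation over 36 half-embryos were Echdc1 (r = 0.74), Mir139 (0.74), Phykpl (0.71), Ccni (0.71) and Gm19826 (0.70). These half-embryos share array sets and media, and Echdc1, for example, averaged 7.03, 8.05 and 7.97 in KSOM(aa), GM501 and SAGE 1-step. When the mean of each medium and embryo set was taken out, the 5 nearest were Gm11709 (r = 0.68), Mrc1 (0.67), Rps15a-ps4 (0.62), Ctbs (0.61) and Fance (0.60), none of them in the first list. Among the members, r to Wls over 36 half-embryos was from -0.62 (Wnt7b) to 0.24 (Axin2), and from -0.28 to 0.21 once medium and embryo set were taken out.

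The rest of the pathway was taken from 9 lists with 124 genes, all measured, of which 114 are not among the 10. Against KSOM(aa), 2 of the 114 rose and 4 fell in GM501, and 2 rose and 7 fell in SAGE 1-step (limma, adjusted p under 0.05). Over all transcript clusters 4.06% rose and 3.6% fell in GM501, and 5.13% rose and 4.42% fell in SAGE 1-step, so these shares are of the order of the background. The median log2 difference of the 114 was 0.04 and 0.03, against 0.09 and 0.10 for all transcript clusters. Both comparisons share the KSOM(aa) half-embryos, and here too the array set and the medium cannot be told apart. Centring on the median gave 1018 higher and 2669 lower calls over all transcript clusters in GM501, from 1632 and 1444, and 1205 and 3382 in SAGE 1-step, from 2062 and 1774. Scaling to Actb, Gapdh and Hprt gave 31273 and 504 in GM501 and 33350 and 509 in SAGE 1-step. With a random replicate block for the embryo, 4 and 5 of the 114 passed.

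Genes of the cytoplasmic relay, the destruction complex and Dishevelled, gave 2 of the 4 falls in GM501 and 4 of the 7 in SAGE 1-step, out of 16, and none rose. Over all transcript clusters 3.6% and 4.42% fell. Fitted alone, the 22925 detected transcript clusters gave 1769 and 2026 lower calls. Of the 17 genes of this list with Axin2, 15 were detected, so the shares over all compare unlike genes. The median log2 differences of the 16 were -0.30 and -0.41. Csnk1e, a casein kinase 1 that phosphorylates Dishevelled, averaged 10.87 ± 0.26 for KSOM(aa), 9.86 ± 0.61 for GM501 and 9.83 ± 0.65 for SAGE 1-step on the log2 scale (SD, n = 16, 10 and 10). It fell, at -1.01 and -1.05 (adjusted p = 0.00245 and 0.00139, limma). In SAGE 1-step, Gsk3a, a kinase that marks beta-catenin for destruction, fell by 1.27 (adjusted p = 0.00697, limma), Csnk1d by 0.93 (0.0168, but 0.109 when scaled to Actb, Gapdh and Hprt) and Dvl3, a Dishevelled protein, by 0.58 (0.0233). In GM501 these 3 had differences of -0.79, -0.74 and -0.40 (adjusted p = 0.1, 0.0635 and 0.141, limma). Dvl3 came to 0.01 in SAGE 1-step under scaling to Actb, Gapdh and Hprt. The second gene that fell in GM501 was Csnk1a1 (-0.42, adjusted p = 0.0336, limma), outside the naming rule and named after its value was seen. It no longer passed with the random replicate block (adjusted p = 0.0602, limma) and turned to 0.10 under scaling to Actb, Gapdh and Hprt. That scaling left Csnk1e at -0.49 and -0.45 (adjusted p = 0.00917 and 0.0108, limma) and Gsk3a in SAGE 1-step at -0.68 (0.0113). The signals of these genes were lower mainly in embryos 9 to 14. Csnk1e had -1.45 and -1.46 there, against -0.35 and -0.42 in embryos 15 to 18. In SAGE 1-step Gsk3a had -1.81 against -0.46, Csnk1d -1.29 against -0.40 and Dvl3 -0.91 against -0.08, and in GM501 Csnk1a1 had -0.66 against -0.06. With embryos 15 to 18 alone none of these calls passed (adjusted p = 0.164 to 0.891, limma). Over all transcript clusters 277 passed there in GM501 and 294 in SAGE 1-step.

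Among the nuclear factors, Tle3, a co-repressor that TCF factors recruit, fell in both media (log2 -0.79 in GM501, adjusted p = 0.00992, and fell by 1.00 in SAGE 1-step, adjusted p = 0.00141, limma). Scaled to Actb, Gapdh and Hprt it no longer passed (-0.27 and -0.40, adjusted p = 0.217 and 0.0658). Its means were 9.04 ± 0.45 for KSOM(aa), 8.25 ± 0.35 for GM501 and 8.04 ± 0.60 for SAGE 1-step (SD, n = 16, 10 and 10). Tcf7, a TCF factor and a target of the pathway, rose by 0.33 in GM501 (adjusted p = 0.00548, limma) and had a difference of 0.07 in SAGE 1-step (adjusted p = 0.567, limma). It came to 0.19 (adjusted p = 0.144, limma) with arrays centred on the median and to 0.19 (0.15) with quantile normalization. Scaled to Actb, Gapdh and Hprt it was 0.85 and 0.66 (adjusted p = 6.9e-04 and 0.0017, limma). Tcf7 lay near background. Its means were 4.88 (KSOM(aa)), 5.21 (GM501) and 4.95 (SAGE 1-step), and the median detection levels were 4.89, 4.97 and 5.04. Tcf7 was the 1 of 16 target genes other than Axin2 that passed in GM501, and none of the 16 passed in SAGE 1-step.

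At the cell surface, Lgr4, a receptor for R-spondins, rose by 0.68 in GM501 (5.50 ± 0.37 to 6.18 ± 0.70, SD, adjusted p = 0.0267, limma), a call that centring on the median ended (0.55, adjusted p = 0.123, limma), and had 0.51 in SAGE 1-step (adjusted p = 0.0874, limma). Scaled to Actb, Gapdh and Hprt it was 1.20 and 1.11 (adjusted p = 1.1e-04 and 1.3e-04, limma). In embryos 15 to 18 alone Lgr4 had 1.26 and 0.93 (adjusted p = 0.00657 and 0.0403, limma), against 0.30 and 0.24 in embryos 9 to 14 (0.159 and 0.267). Tpbg, a membrane inhibitor of Wnt signalling, rose by 0.50 in SAGE 1-step (adjusted p = 0.0423, limma), with 0.46 in GM501 (adjusted p = 0.0695, limma). Without half-embryo 16b the Tpbg call in SAGE 1-step was lost (0.45, adjusted p = 0.0776, limma). Scrib, of the planar cell polarity pathway, fell, at -0.43 and -0.40 (adjusted p = 0.0299 and 0.0346, limma), and turned to 0.09 and 0.19 under scaling to Actb, Gapdh and Hprt. The Frizzled receptor Fzd6 and the ligand Wnt9a passed in SAGE 1-step at 0.16 and -0.32 (adjusted p = 0.0392 and 0.0253, limma), but neither was detected in 50% of the arrays of any medium, Fzd6 came to 0.02 with arrays centred on the median (adjusted p = 0.887, limma), and Wnt9a turned to 0.28 under scaling to those 3 genes. With the random replicate block Scrib (adjusted p = 0.0602 and 0.0678), Tpbg (0.0648), Fzd6 (0.0848) and Wnt9a (0.0504) no longer passed, nor did Csnk1a1. Of the 8 other genes of Wnt secretion none passed in either medium.

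**Figure D4:**
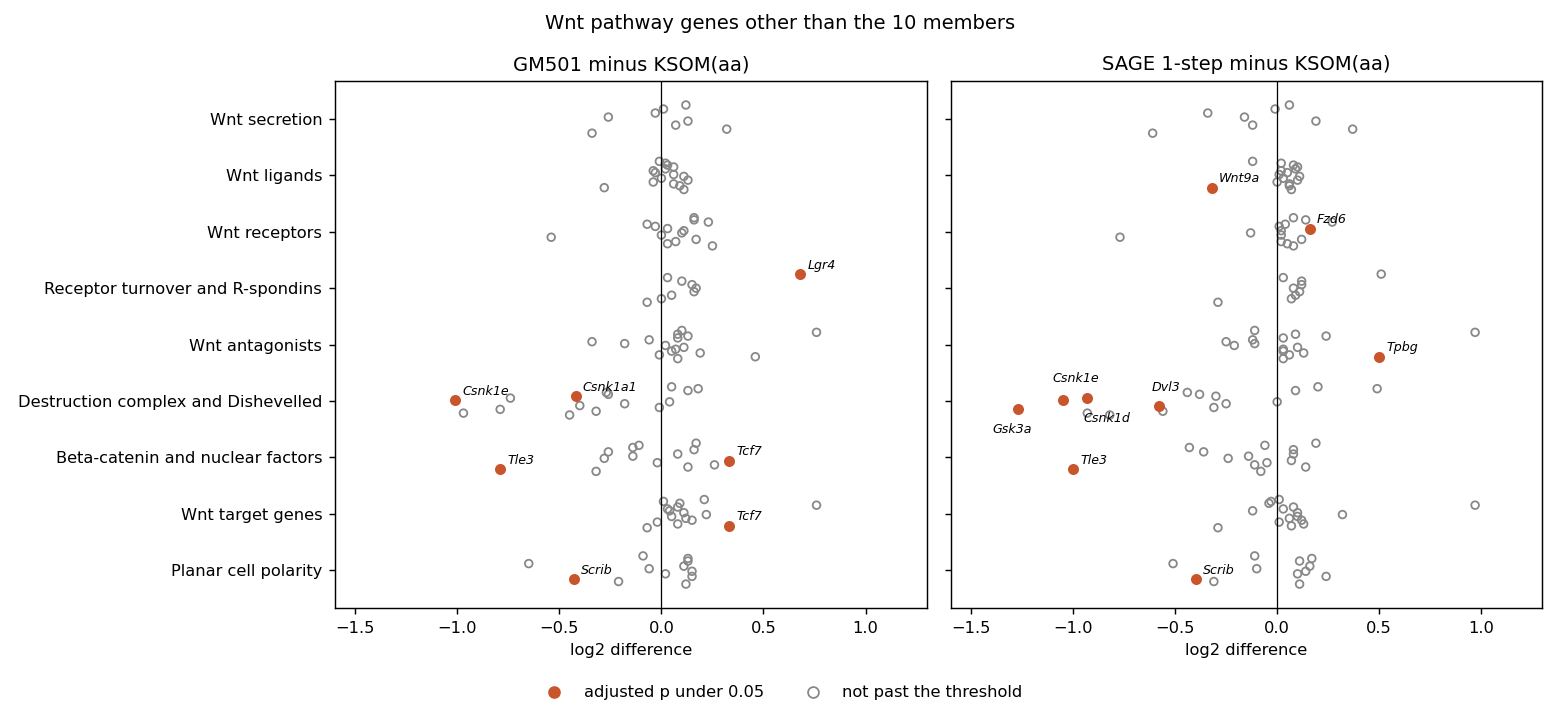
Log2 difference from KSOM(aa) of the Wnt pathway genes other than the 10, by list, in GM501 (left) and SAGE 1-step (right). Filled points passed at an adjusted p under 0.05 (limma) and are named, and a gene in several lists is drawn in each. The destruction complex and Dishevelled list has 2 filled points on the left and 4 on the right, all below 0, with Csnk1e at -1.01 and -1.05.

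Between embryo sets, the same cytoplasmic relay list had 13 of 16 genes other than Axin2 lower in embryos 9 to 14 and none higher (limma, adjusted p under 0.05), against 9.25% of all transcript clusters lower. Its median was -0.68, while the median of all transcript clusters was 0.30. Of the 17 genes of this list with Axin2, 15 were detected, against 22925 of all 40160 transcript clusters, so these shares compare unlike genes. The share over detected transcript clusters is not given. The count of 13 is as deposited, and centring on the median turned the split of all transcript clusters to 2474 higher and 6097 lower. Named after their values were seen, Tnks, a tankyrase that marks Axin for degradation, was lower at -1.96 (adjusted p = 3.2e-04, limma), and Vps35, a retromer subunit that returns Wls from endosomes, at -1.56 (adjusted p = 0.00642, limma). Vps35 belongs to the secretion list, where 3 of the 8 other genes were higher and only 1, Vps35, was lower. In the ligand list, 12 of 16 other genes were higher and none lower, against 45.6% of all transcript clusters higher, and the list's median of 0.23 was below the 0.30 of all. Only 6 of 19 ligands were detected, so most of them were not above background by that rule, and the detection level itself was 4.94 to 5.49 in embryos 9 to 14.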

How the data were processed

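RNA of 36 single half-embryo blastocysts was measured on MTA-1_0 arrays after amplification with the WT Pico kit. The authors made the deposited log2 values with the Affymetrix Expression Console (Signal Space Transformation with robust multiarray averaging, annotation na36 on mm10), and the arrays normalized together are not given in the sources used here. The column of half-embryo 1a was recorded as a score because 1 of its deposited cells is no log2 signal, and the transcript cluster concerned was dropped. Both deposited tables gave identical signals.

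The 40160 transcript clusters with a symbol were fitted with limma 3.58.1 in R 4.3.3 (trended eBayes, 2-sided, Benjamini-Hochberg, threshold 0.05), each half-embryo 1 sample. Detection required a signal above the 90th percentile of 1527 receptor genes in 50% or more of a medium's arrays. Embryo sets 9 to 14 and 15 to 18 were drawn from the Rn18s signal, not from labels, and compared on sister means. Sisters come from the same embryo, as labelled, and their consensus correlation was 0.374 in a fit with medium alone. This value includes the shift between embryo sets, which both sisters of an embryo share. Python 3.11.15, pandas 2.3.3 and scipy 1.17.1 made the exact permutation tests. The fits were tested on simulated arrays drawn independently, without the sister correlation or embryo sets of the data.

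The members, gene lists and tests were chosen with earlier results of these data known. Named are the 10 members, up to 4 genes per list with the smallest adjusted p under 0.05 against KSOM(aa), 6 markers, and the genes most like Wls. Alternatives were quantile normalization, median centring, scaling to Actb, Gapdh and Hprt, detected genes only, replicate blocks, analysis of variance, an Xist term, single embryo sets, embryos 1 to 5 in KSOM(aa), and leaving out 16b or an embryo. For pathway genes, leaving out 16b was chosen after seeing the data.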

Additional observations from a re-analysis of the deposited data

Results flagged for a closer look

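The difference from KSOM(aa) varied between embryos 9 to 14 and embryos 15 to 18 for 3 members by the test of the difference itself, across a split drawn from the 18S signal of the arrays (limma on embryo means): Ctnnb1 (log2 -1.83), Lrp6 (-1.14) and Wnt7b (-0.42). The KSOM(aa) half-embryos are common to both sets, so this is the difference between the sets in GM501 and SAGE 1-step together. In the 20 groups of 10 half-embryos checked, 10 genes in each of GM501 and SAGE 1-step, no half-embryo lay apart from the rest by Dixon's 95% criterion, which chance alone passes in about 1 group of 20.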

How the results depend on the processing

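The Wls difference from KSOM(aa) kept its direction under every alternative run, from 1.81 to 2.46 in GM501 and from 1.99 to 2.72 in SAGE 1-step. Scaling to Actb, Gapdh and Hprt turned Wnt7b to 0.14 (GM501) and 0.12 (SAGE 1-step) against KSOM(aa), and the smaller differences of Wnt6, Wnt3a, Tcf7l1, Fzd5, Lrp6 and Ctnnb1 that were below 0 in a medium also turned, save Ctnnb1 in GM501. In embryos 9 to 14 against 15 to 18 it turned Wls to 0.59, Porcn to 0.12, Wnt7b to 0.18, Wnt3a to 0.53, Axin2 to 0.50, Tcf7l1 to 0.41 and Fzd5 to 0.53, and in GM501 against SAGE 1-step it turned Wnt6 to -0.05, Lrp6 to -0.0013 and Fzd5 to -0.0043. In embryos 9 to 14 against 15 to 18, Wnt6 turned to -0.12 with quantile normalization and to -0.15 with median centring, Wnt3a to 0.03 in GM501 alone, and Axin2 to 0.12 and Fzd5 to 0.15 in SAGE 1-step alone. Leaving out 1 of embryos 15 to 18 gave Wls from -0.23 to 0.11. In GM501 against SAGE 1-step, Wnt3a turned to 0.03, Lrp6 to -0.14 and Fzd5 to -0.12 in embryos 9 to 14, and Porcn to 0.25 in embryos 15 to 18. Of these, only Wnt7b between embryo sets had passed a test as deposited. Ctnnb1 in GM501 against KSOM(aa) turned to 0.47 in embryos 15 to 18.

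The 114 other pathway genes that passed against KSOM(aa) numbered 6 in GM501 and 9 in SAGE 1-step. The counts were 87 and 90 under scaling to Actb, Gapdh and Hprt, 57 and 60 with embryos 9 to 14 only, 1 and 1 with embryos 15 to 18 only, 3 and 3 with embryos 1 to 5 in KSOM(aa) only, and 1 and 2 with sisters in KSOM(aa) averaged. In GM501 median centring gave 11, and in SAGE 1-step the random replicate block gave 5. Members that passed between embryo sets numbered 3, with 5 after median centring, 6 under scaling to Actb, Gapdh and Hprt, 1 in SAGE 1-step alone, and 3 to 5 when 1 embryo was left out. The random replicate block gave 1 transcript cluster between GM501 and SAGE 1-step, against 0. The cause of these shifts was not tested. Other transcript clusters of the members could not be tried, since each has 1. Low signal over background limits Wnt3a most.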
